A study of Mus musculus with 21 samples.

Results

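The genes described here are 57 widely expressed genes of mouse chromosome 12, and the question put to them was how far the RNA of a whole chromosome shifts in tumor cells passaged on foreign tissue. They were chosen by measured values of the same arrays: as a set, genes of this chromosome were lower in cells after the early passages on brain tissue and higher in cells passaged on bone marrow than in the parental cells. Of the 57 genes, 55 had a probe set assigned to a single gene symbol, Rock2 and Traf3 being the exceptions, and 49 were among the 7500 genes with the highest mean level over the arrays, on which all results below rest. The 6 measured genes below that level were Lpin1, Klf11, Itgb1bp1, Fancm, Prpf39 and Mnat1. The arrays measured 19937 genes in all, of which 652 lie on chromosome 12, and 274 of these were kept, so that 225 other genes of the chromosome could be set beside the 49.

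The cells were N202, a line from a mammary tumor of a mouse carrying rat HER-2/neu under the MMTV promoter, and all of them, parental cells included, carried a construct for green fluorescent protein fused to histone H2B. Spheroids were grown for 21 days on minced brain, bone marrow or lung of C57BL/6 donors in dorsal skinfold chambers of female nude mice. The cells were then recovered under G418, grown in vitro, and regrafted for the next passage. The paper does not describe the breast tissue graft or its donor. RNA came from sorted cultures of cells passaged on brain (P1 to P4, 2 arrays each), bone marrow (P1 to P4, 1 array each), lung (P1 to P4, 1 array each) or breast tissue (P1, 1 array), of cells of another brain experiment labelled a biological replicate and called here the second brain experiment (P1 and P2, 1 array each), and of the parental cells (P0, 2 arrays), 21 arrays in all. The paired brain arrays began from separate cultures of the same adapted cells, each tissue had a single adapted line except brain, and successive passages descend from each other, so p-values measure the spread between cultures and not between adapted lines.

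A gene present in more copies offers more templates for transcription, and when a tumor cell gains or loses a chromosome, the RNA of many genes along it tends to move together by a small amount. Genes that every cell uses, often called housekeeping genes, are often used to read such a shift, since they are active in most cells and their promoters are mostly rich in CpG dinucleotides. The members serve many tasks in the cell: Odc1 makes putrescine and is the rate-limiting step of polyamine synthesis, Hsp90aa1 is an inducible cytosolic chaperone, Eif5 helps choose the start codon, Akt1 is a kinase of growth and survival signalling, and Hif1a is the regulated subunit of the hypoxia-inducible transcription factor. DNA was not measured in these samples, so copy number was not tested by any value given here.

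The word housekeeping was examined on the promoter sequences, with no array value involved. RefSeq promoters of GRCm38.p6, running from 250 bases before to 50 bases after the start (the first start listed for a gene was used), were found for 51 of the 57 members. The ratio of observed to expected CpG was over 0.6 in 43 of these 51 promoters (84.3%), against 84.4% of the 205 promoters of the other kept genes of chromosome 12, 81.6% of those of all kept genes and 36.4% of the 27025 promoters in the table. The members therefore resembled the other well-expressed genes of their chromosome in this respect, and the share was higher in both than in the table as a whole. The letters TATAAA, searched on both strands of the whole promoter, were present in 4 members (Laptm4a, Arhgap5, Nfkbia and Zfp36l1), which is 7.84%, against 2.93% of the other kept genes of the chromosome, 367 of 6121 promoters of all kept genes and 14.2% of the table. Among the kept members the promoter richest in CpG for its base composition was that of Dld (ratio 1.14, minus strand, chr12:31351472-31351591), a middle one was that of E2f6 (0.863, plus strand, chr12:16810845-16810964), and the poorest was that of Laptm4a (0.092, plus strand, chr12:8921187-8921306). The 120 bases before each start are shown, 5′ to 3′, as examples of this range, with every CpG in capitals.
Dld: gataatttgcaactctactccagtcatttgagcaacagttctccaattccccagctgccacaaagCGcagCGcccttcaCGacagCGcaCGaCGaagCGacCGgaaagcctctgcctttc
E2f6: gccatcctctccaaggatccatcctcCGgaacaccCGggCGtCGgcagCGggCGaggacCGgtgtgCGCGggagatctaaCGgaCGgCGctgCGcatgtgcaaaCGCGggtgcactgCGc
Laptm4a: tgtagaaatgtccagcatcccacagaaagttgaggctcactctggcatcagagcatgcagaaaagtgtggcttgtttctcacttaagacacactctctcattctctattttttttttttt
The stretch held 8 CpG in Dld, 16 in E2f6 and 0 in Laptm4a. Dld encodes the lipoamide dehydrogenase shared by the pyruvate and oxoglutarate dehydrogenase complexes, E2f6 a repressor of the E2F family, and Laptm4a a membrane protein of lysosomes.

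The lowest 5% of values on each array ended between 2.49 and 3.35 on the deposited log2 scale, and 5 arrays had a higher floor than the rest, namely the replicate 2 arrays of brain P1 to P4 and the lung P1 array. The correlation between this floor and the chromosome 12 median was -0.08 over the 21 arrays, which share parental cells and descent, and is given as a description. Epithelial markers were expressed on every array, as the label of a mammary tumor line requires: 5 of 6 (Krt8, Krt18, Epcam, Cdh1 and Erbb2) were among the kept genes, and the list averaged 4.41 to 4.97 above the array median. No marker fixed for neurons, astrocytes, leukocytes, erythroid cells, lung epithelium, fibroblasts, endothelium or adipocytes was kept, and Mbp was the exception among oligodendrocyte markers; of 3 erythroid markers 1 was on the arrays. The median of the kept genes itself moved between -0.21 and 0.12 from array to array after the median of all genes had been subtracted, and for this reason changes of the set are given relative to the kept genes (the relative change, on the log2 scale). A bulk array cannot tell fewer cells of a type from less RNA per cell.

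In cells passaged on brain the members went through a low, a high and a middle phase. Their median relative change was -0.17 and -0.11 on the P1 arrays, -0.13 and -0.06 on the P2 arrays, 0.17 and 0.16 on the P3 arrays and -0.03 and -0.04 on the P4 arrays, beside 0.02 and -0.02 on the parental arrays themselves. On bone marrow it was 0.20 at P1, 0.25 at P2, 0.20 at P3 and 0.05 at P4. On lung it alternated, with 0.12 at P1, -0.04 at P2, 0.10 at P3 and -0.13 at P4. The second brain experiment gave 0.20 at P1 and 0.04 at P2, and the breast tissue array 0.06. Arrays of a pair differed by an SD of 0.035 over 5 pairs, so the P3 arrays lay well apart from those of P1, P2 and P4, while the P4 pair lay just below the parental pair. The parental arrays themselves stood 0.03 below and 0.03 above their mean in the median of all kept genes of chromosome 12, the lowest and the highest of 20 chromosomes. The 225 other genes of chromosome 12 followed a like course, with -0.25 and -0.17 at brain P1, -0.18 on both arrays at P2, 0.12 and 0.14 at P3 and -0.07 and -0.01 at P4. The early brain and bone marrow values chose the members and are a description only.

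**Figure D1:**
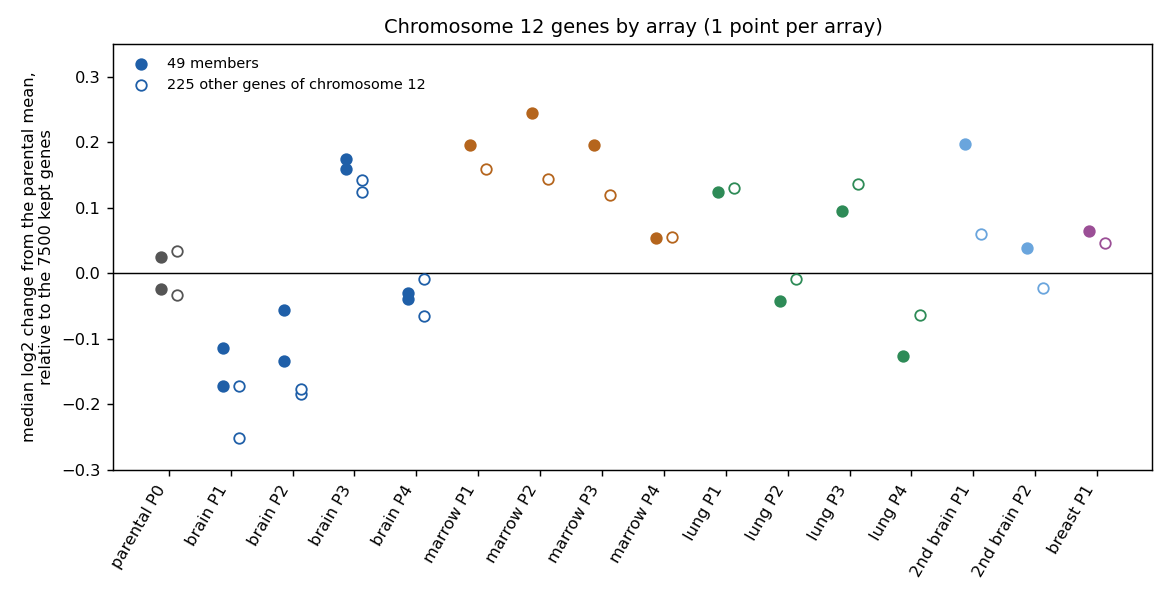
Median log2 change from the parental mean, relative to the kept genes, for the 49 members (filled) and the 225 other kept genes of chromosome 12 (open), with 1 point per array and groups along the horizontal axis. The brain P1 and P2 arrays lie below 0, both brain P3 arrays and the 4 bone marrow arrays lie above it, and the lung arrays lie on both sides.

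The members did not move as a block, and the direction by which they were chosen held for the set rather than for each gene. In early brain (P1 and P2 together) 35 of 49 had a relative change below 0 and in bone marrow 41 of 49 had one above 0, while 29 of 49 (59.2%) showed both directions, beside 116 of 225 (51.6%) of the other genes of the chromosome and 23.1% of all kept genes. Of the remaining members, 12 were higher in both, led by Odc1, 6 were lower in both, and 2 (Ncoa1 and Gtf2a1) ran the opposite way. Just outside both directions stood Max, with 0.01 in early brain and 0.38 on bone marrow, and Ywhaq, with 0.01 and 0.22. Just inside stood Numb, with -0.03 in early brain and 0.04 on bone marrow, and Yy1, with -0.22 and 0.03. The median relative change was -0.14 in early brain (quartiles -0.30 and 0.01) and 0.17 in bone marrow (quartiles 0.06 and 0.25), set against quartiles of -0.25 and 0.23 and of -0.15 and 0.15 for all kept genes. Every early brain array was below both parental arrays in 8 of the 49 members (16.3%), beside 15.0% of all kept genes, and every bone marrow array was above both parental arrays in 17 (34.7%), beside 14.2%. Limma called 2 members in early brain, Odc1 and Hif1a, both higher, where it called 12.6% of all kept genes. On bone marrow it called 0, beside 0.187% of all kept genes. There 9 members (18.4%) reached an unadjusted p under 0.05, beside 9.73% of all kept genes. These counts rest on the contrasts that chose the members, and nothing is read from them.

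**Figure D2:**
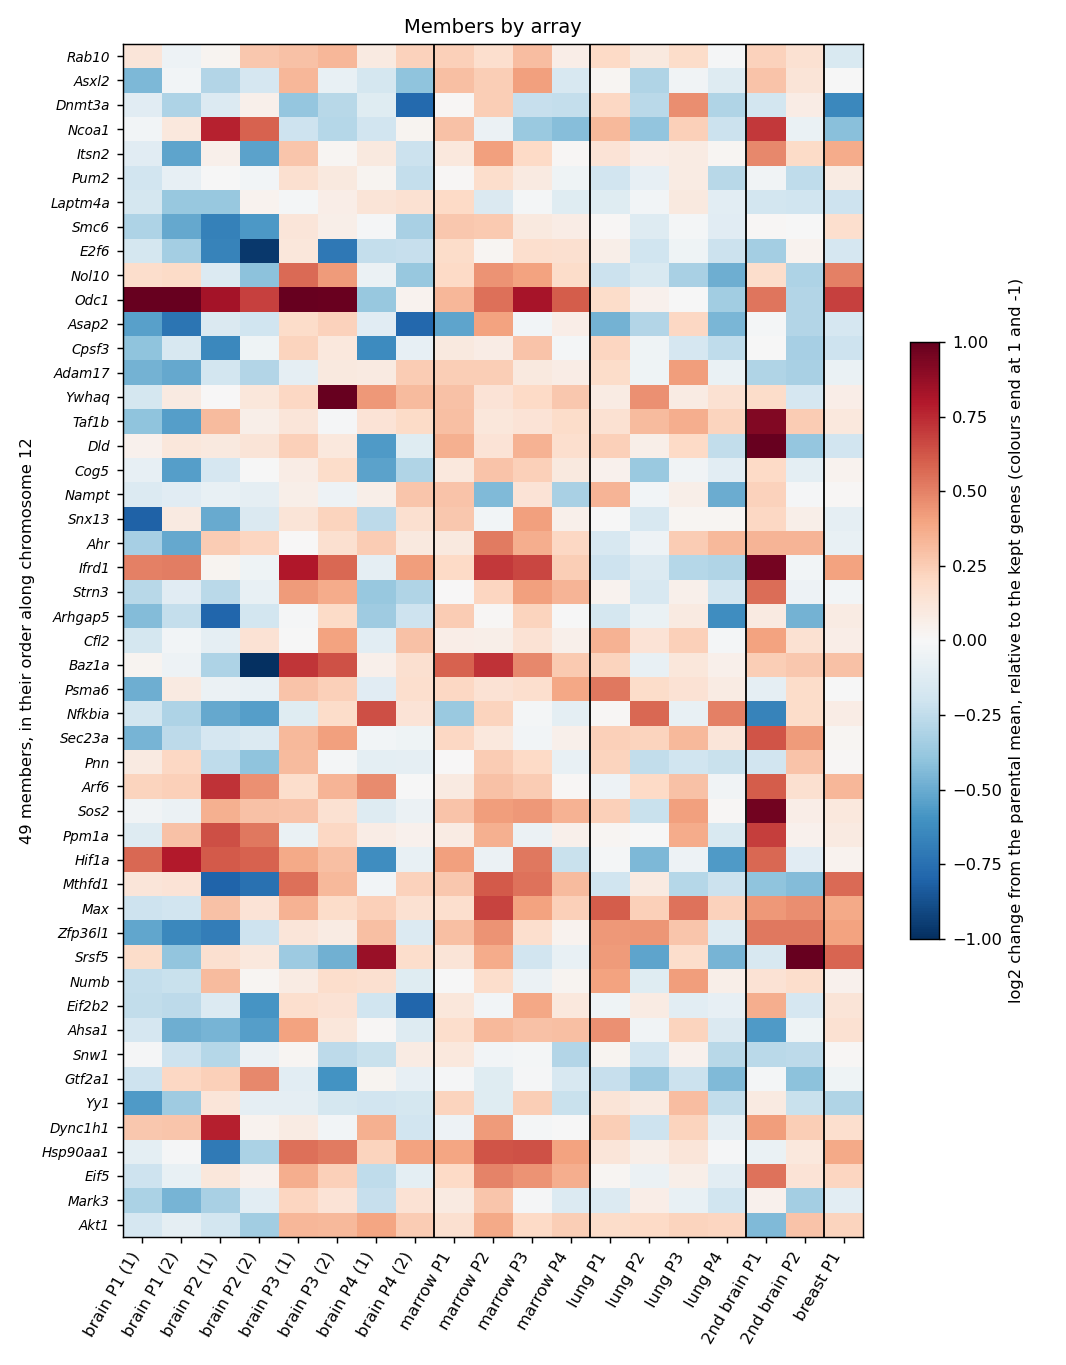
Log2 change of each kept member (rows, in gene order along chromosome 12) from the parental mean on each array (columns), relative to the kept genes, with red for higher and blue for lower and the colors ending at 1 and -1. Blue prevails in the brain P1 and P2 columns and red in brain P3 and bone marrow P1 to P3, and the Odc1 row is red in the brain P1 and P2 columns, unlike most rows.

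Some members stood far from the set on the arrays that chose it. Odc1 had levels of 6.06 and 6.22 at brain P1 and 5.73 and 5.50 at P2, and of 5.21, 5.50, 5.66 and 5.59 on the bone marrow arrays P1 to P4, against 4.86 and 4.88 in parental cells (log2 above the array median, as all levels below). Hif1a had 5.36 and 5.57 at brain P1 and 5.35 and 5.24 at P2, against 4.50 and 4.92 in parental cells. Both genes were thus above both parental arrays where most genes of the chromosome had lower values. Smc6, part of a complex that holds and repairs chromosomes, had 2.95 and 2.74 at brain P1 and 2.54 and 2.55 at P2, against 3.29 and 3.07 in parental cells, with no overlap. E2f6 had 2.52 and 2.36 at brain P1 and 1.99 and 1.61 at P2, against 2.24 and 3.01 in parental cells, a pair as far apart as the groups. Zfp36l1, which binds AU-rich mRNAs and speeds their decay, had 3.67 and 3.54 at P1 and 3.45 and 3.85 at P2, against 4.23 and 4.00. On bone marrow the farthest members above the set after Odc1 were Hsp90aa1, with 6.56, 6.86, 6.76 and 6.67 at P1 to P4 against 6.16 and 6.15 in parental cells, and Baz1a, a subunit of the ACF chromatin remodeler, with 3.09, 3.31, 2.95 and 2.87 against 2.62 and 2.38. All 4 bone marrow arrays exceeded both parental arrays in each of these 2 genes. Those farthest below were Ncoa1, a coactivator of nuclear receptors (2.75, 2.48, 2.04 and 2.14 against 2.28 and 2.62), Nampt, which makes the precursor of NAD (3.84, 3.19, 3.65 and 3.34 against 3.24 and 3.86), and Gtf2a1, a subunit of the general factor TFIIA (3.07, 3.04, 3.04 and 3.03 against 2.93 and 3.22). All 3 overlapped the parental cells. Nearest the set in both were Cog5 of the Golgi, the proteasome subunit Psma6, and Taf1b, a subunit of the RNA polymerase I factor SL1. Cog5 stood at 1.26 to 1.74 in early brain and at 1.86 to 2.11 on bone marrow, against 1.55 and 1.95 in parental cells.

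The arrays of passages P3 and P4 on brain were not used in the choice, but they are set here against the same 2 parental arrays as the contrasts that were, so a low or high parental value would move them together. At P3 the set lay above the parental cells: 42 of 49 members (85.7%) had a relative change above 0, beside 149 of 225 other genes of the chromosome (66.2%), and their median was 0.16. Odc1 was the member that passed the test (change 1.09 ± 0.20 SE, adjusted p = 0.027, limma with Benjamini-Hochberg adjustment), where limma called 1.0% of all kept genes. It measured 6.11 and 5.81 at P3 against 4.86 and 4.88 in parental cells, far beyond the spread of either pair. At P4, 22 of 49 members were above 0 and the median was -0.03. Limma called 0 members there, against 1.32% of all kept genes, and 8 reached an unadjusted p under 0.05, all of them lower than in parental cells, beside 16.0% of all kept genes that were lower at that p, with a kept-gene median change of -0.20. With P3 and P4 pooled as late brain, 35 members were above 0 (71.4%), the median was 0.07, and limma called 0 of 49, beside 0.84% of all kept genes. Without the filter on low genes the median was -0.07, relative then to all 19937 genes and not to the 7500 kept. Of the members Dnmt3a alone (2.04%) had an unadjusted p under 0.05 in late brain, beside 12.5% of all kept genes. Both Akt1 and Hsp90aa1 were higher on all 4 late brain arrays than on both parental arrays, which was the case for 4.59% of all kept genes and 4.08% of the members. Akt1 had 5.58 and 5.43 at P3 and 5.39 and 5.20 at P4 against 5.19 and 5.12 (adjusted p = 0.56), and the lower P4 array stood hardly above the parental cells. Dnmt3a, which sets new DNA methylation, had 1.59 and 1.56 at P3 and 1.60 and 0.90 at P4 against 1.79 and 1.98 in parental cells (change -0.47 ± 0.20 SE, adjusted p = 0.34), lower on every array.

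Between P4 and P3, which share no array with the choice or with the parental cells, the set was lower at P4. This comparison was chosen with the values in view. The median relative change of the members was -0.22, with 37 of 49 below 0 (75.5%), beside -0.16 and 155 of 225 (68.9%) for the other genes of the chromosome. Both P4 arrays were below both P3 arrays in 36 members (73.5%), beside 44.8% of all kept genes and 61.3% of the other genes of chromosome 12, and Srsf5, a splicing factor, showed the reverse. Limma called 413 of all kept genes (5.51%), of which 359 were lower at P4 and 54 higher. Among the 225 other genes of the chromosome it called 16 lower and 1 higher. Of the members it called 6 (12.2%), all lower at P4. The kept genes as a whole had a median of -0.21 in this comparison, and the count fell to 1 with the values as deposited, to 2 after cyclic loess and to 2 with the kept genes of the other chromosomes as the base, with Odc1 called under each of these 3 scalings. It was 0 without the 5 arrays of high floor, which takes 1 array from each passage. With the arrays labelled technical replicates as a block over P1 to P4, limma called 11 members, the same 6 among them and Srsf5 the member higher at P4, where it called 805 of 7500 kept genes. With a filter at 5000 genes it called 8 members. For the settings other than the block, the number of all genes called is not given here, so a fall or rise in the count is not read as particular to the members.

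Odc1 had 4.32 and 4.70 at P4 against 6.11 and 5.81 at P3 and changed the most (-1.45 ± 0.20 SE, adjusted p = 0.0063, limma). The gene has 2 probe sets, and all its levels given here come from the one with the higher mean. Odc1 was also called with the mean over both. Strn3, a scaffold of the STRIPAK phosphatase complex, had 2.15 and 2.19 at P4 against 3.22 and 3.02 at P3 (-0.95 ± 0.19 SE, adjusted p = 0.021). In both genes the P4 pair was also below the parental cells, which had 4.86 and 4.88 for Odc1 and 2.53 and 2.86 for Strn3. Nol10, a nucleolar protein whose yeast counterpart acts in making the small ribosomal subunit, had 2.17 and 1.81 at P4 against 3.06 and 2.77 at P3 (-0.93 ± 0.20 SE, adjusted p = 0.032). Hif1a had 3.92 and 4.43 at P4 against 5.19 and 4.96 at P3 (-0.90 ± 0.22 SE, adjusted p = 0.044). The pairs did not overlap in either gene, although the P4 arrays of Hif1a were far apart. Eif5 had 4.88 and 4.99 at P4 against 5.75 and 5.49 at P3 (-0.69 ± 0.18 SE, adjusted p = 0.049), and Asap2, which switches off Arf GTPases, had 1.67 and 0.95 at P4 against 2.23 and 2.13 at P3 (-0.87 ± 0.23 SE, adjusted p = 0.049). Both stood at the edge of the threshold. Every one of the 6 lost its call when the filter on low genes was dropped. Hsp90aa1 had 6.20 and 6.35 at P4 against 6.80 and 6.62 at P3 (adjusted p = 0.16).

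**Figure D3:**
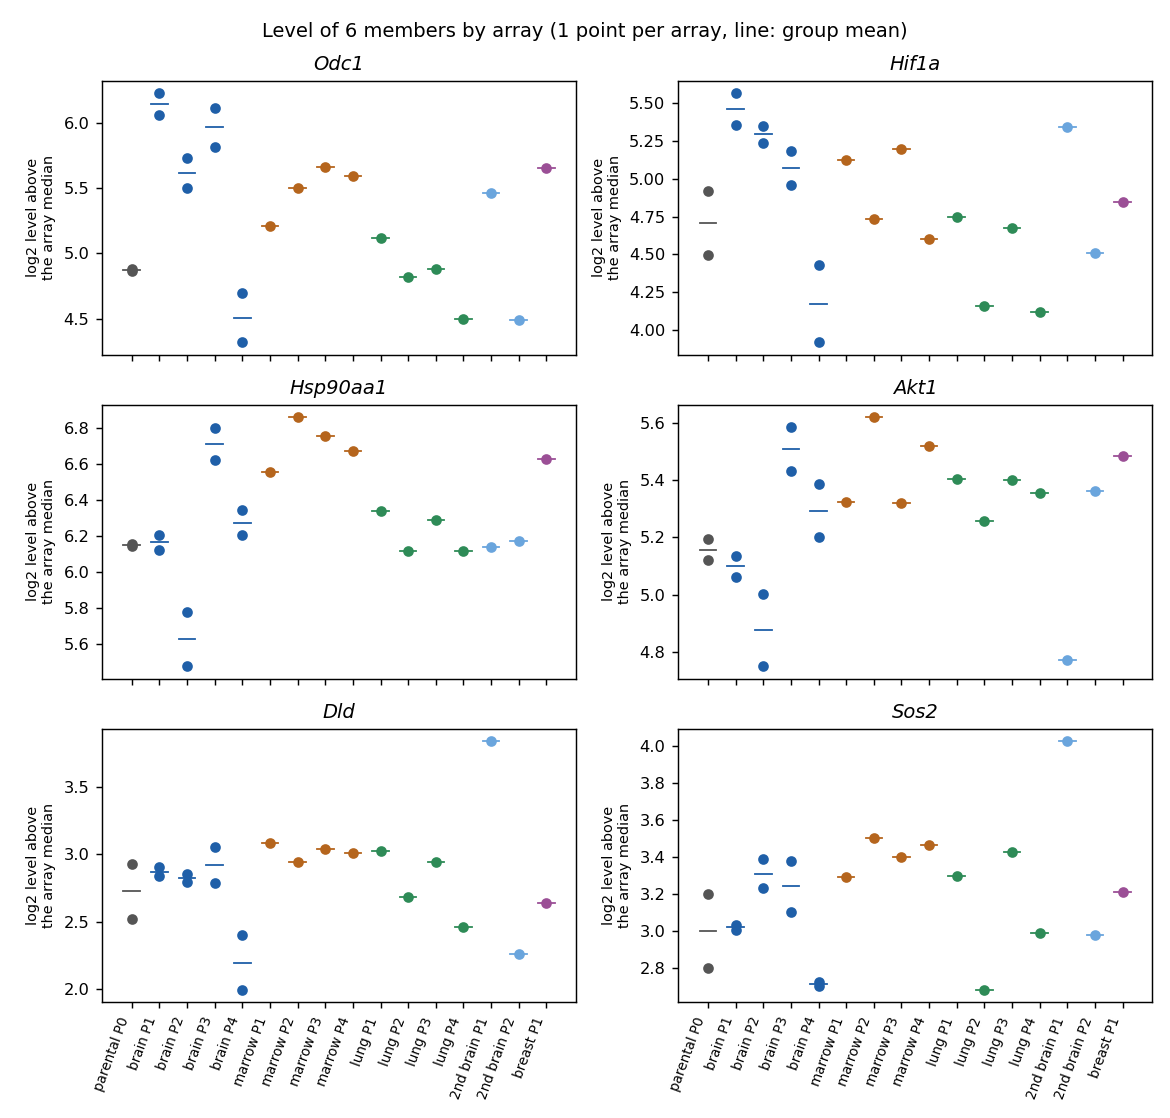
Log2 level above the array median of 6 members, with 1 point per array, a line at each group mean and groups along the horizontal axis; the vertical axes differ and do not start at 0. Odc1 and Hif1a are high at brain P1 to P3 and low at P4, Hsp90aa1 is above both parental arrays on all bone marrow arrays and at brain P3, and Dld and Sos2 peak on the P1 array of the second brain experiment.

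On lung tissue the set showed no common direction over the 4 passages. The median relative change was -0.01, but 0.08 without P4 and 0.07 without P2, and 24 of 49 members were above 0, while the passages by themselves gave 35 of 49 at P1, 19 at P2, 34 at P3 and 13 at P4. Limma called 0 of 49, beside 0.12% of all kept genes, and 1 member (2.04%) reached an unadjusted p under 0.05, beside 5.29%. All 4 lung arrays exceeded both parental arrays in 3 members (6.12%), namely Akt1, Max and Taf1b, beside 6.21% of all kept genes. They were below both in Gtf2a1, Mark3 and Nol10, a direction in which the share of all kept genes was not counted. Max, the partner through which Myc binds DNA, had 4.43, 3.90, 4.32 and 3.96 at P1 to P4 against 3.74 and 3.77 in parental cells (0.40 ± 0.16 SE, adjusted p = 0.86), high at P1 and P3 like the set. Akt1 had 5.40, 5.26, 5.40 and 5.35 against 5.19 and 5.12, close together and above the parental pair. Each lung passage was a single array, so a difference between passages could not be told apart from one between cultures.

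The authors modeled the passages of the second brain experiment as matching later points of the brain series. Compared by passage number alone, the second brain experiment did not repeat the low phase at P1. Its P1 array had 32 of 49 members above 0 and a median of 0.20, against -0.17 and -0.11 on the P1 arrays of the brain series, and the upper quartile reached 0.53, beside 0.28 for all kept genes. Limma called 2 members, both higher (4.08%), beside 3.57% of all kept genes, and 15 members (30.6%) reached an unadjusted p under 0.05, 14 higher and 1 lower, beside 22 higher and 23 lower of the other 225 genes of the chromosome and 18.9% of all kept genes. Dld had 3.84 on this array against 2.52 and 2.93 in parental cells (1.12 ± 0.26 SE, adjusted p = 0.038, limma). Sos2, an exchange factor that activates Ras, had 4.02 against 2.80 and 3.20 (1.02 ± 0.24 SE, adjusted p = 0.039). Both were above every other array of the study, while the P2 array had 2.26 for Dld and 2.98 for Sos2. These calls take a lone array to vary as the paired ones do, and without the replicate 1 parental array both had an adjusted p of 0.12, while Ifrd1, a transcriptional co-regulator, was then the member called (adjusted p = 0.045). Taf1b had 2.55 against 1.38 and 1.74 (adjusted p = 0.053) and Ncoa1 3.22 against 2.28 and 2.62 (adjusted p = 0.11). The members went both ways, since Nfkbia, the inhibitor that holds NF-kappaB in the cytoplasm, had 3.01 against 3.49 and 3.74 (adjusted p = 0.23) and Akt1 had 4.77 against 5.19 and 5.12 (adjusted p = 0.38). At P2 the median was 0.04, though 0.00 without the replicate 1 parental array. Without the filter it was -0.01, relative then to all 19937 genes and not to the 7500 kept. With the kept genes as base, 25 of 49 members were above 0 at P2. Limma called 0, beside 0.0667% of all kept genes, and 2 members (4.08%) had an unadjusted p under 0.05, beside 7.96%.

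On breast tissue 32 of 49 members were above 0 with a median of 0.06, which was 0.00 without the replicate 1 parental array. Limma called 0, beside 0.24% of all kept genes. An unadjusted p under 0.05 was reached by 3 members (6.12%), all higher. The share of all kept genes was 8.59% in either direction and 5.32% higher. Odc1 had 5.66 on this array against 4.86 and 4.88 in parental cells (adjusted p = 0.31) and Dnmt3a 1.34 against 1.79 and 1.98 (adjusted p = 0.64). Each of these comparisons used the same 2 parental arrays as all the others against parental cells. Late brain against lung uses neither parental arrays nor those of the choice: 29 of 49 members were above 0 and the median was 0.04. This median was 0.09 without the 5 arrays of high floor, 0.08 without lung P1 and 0.10 without lung P3. Without the filter on low genes it was -0.08, but relative to all 19937 genes and not to the 7500 kept. Its direction thus depended on the genes used as base. Limma called 0, beside 0.68% of all kept genes, with 4 members (8.16%) at an unadjusted p under 0.05, beside 16.1%. Ifrd1 was farthest above (0.58 ± 0.18 SE, adjusted p = 0.14), with 4.42 and 4.06 at brain P3 and 3.28 and 3.74 at P4 against 3.39, 3.30, 3.27 and 3.21 on lung.

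Along the chromosome the early brain, bone marrow and brain P3 shifts were spread over all stretches rather than local. Early brain and bone marrow are the contrasts that chose the members, so their values here are a description only. The comparison of P4 with P3 was chosen with the values in view. The 274 kept genes were divided in gene order into 10 stretches of 27 or 28 genes, and in early brain all 10 had a median below 0 (from -0.29 in stretch 8 to -0.09 in stretch 3), as all 10 were above 0 on bone marrow (from 0.08 in stretch 7 to 0.20 in stretch 3). At brain P3, against the same parental arrays, all 10 were above 0, from 0.07 in stretch 7 to 0.25 in stretch 5. For P4 against P3 the medians of all 10 were negative, between -0.26 in stretch 1 and -0.01 in stretch 10, the last of which was the highest at P4 itself (0.19). At P4 4 stretches lay above 0, so the course was not shared evenly. The lung passages P1 and P3 had all 10 stretches above 0 while P2 had 5 and P4 had 1. On the P1 array of the second brain experiment 8 stretches were above 0, with 0.24 at stretch 7 and -0.08 at stretch 10. The members were unevenly placed, with 10 in stretch 1 and 1 in stretch 7. The shift was present at low, middle and high mean level: in 3 classes of kept genes of equal size, the chromosome's median less that of the class was -0.19, -0.14 and -0.23 from low to high in early brain, and -0.13, -0.22 and -0.13 for P4 against P3.

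**Figure D4:**
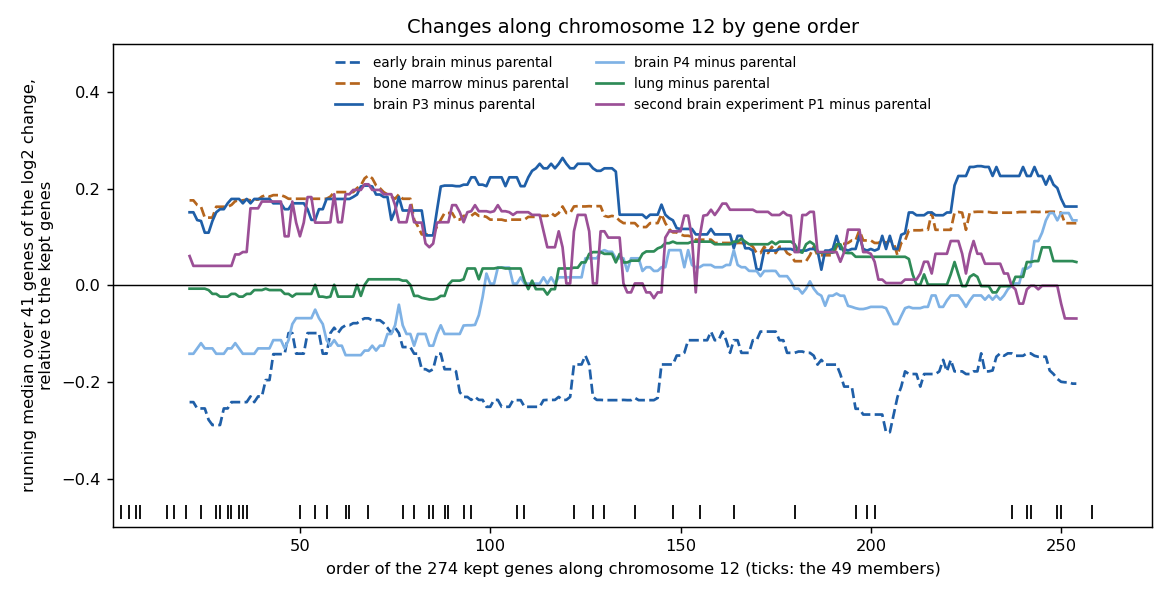
Running median over 41 neighboring genes of the log2 change, relative to the kept genes, along the order of the 274 kept genes of chromosome 12, with ticks for the 49 members; dashed lines are the contrasts that chose the members. The early brain line stays below 0 and the brain P3 and bone marrow lines above it over the whole length, while brain P4 and the second brain experiment cross 0.

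Chromosome 12 was neither alone nor the most displaced. Among 20 chromosomes (1 to 19 and X) it ranked 5 from the lowest at brain P1 and P2, where chromosome 4 was the lowest with a median of -0.53 for both passages together, and chromosome 14 next with -0.32, against -0.19 for chromosome 12. On bone marrow it ranked 18 from the lowest with 0.13, under chromosome 14 (0.29) and chromosome 15 (0.22). The same order was seen at brain P3, with 0.27 for chromosome 14, 0.23 for chromosome 15 and 0.15 for chromosome 12. On lung P4 chromosome 12 was the lowest but for chromosome 13 (-0.08 and -0.09). For scale, the log2 ratio of 3 to 2 copies is 0.58, that of 5 to 4 copies 0.32 and that of 3 to 4 copies -0.42. The chromosome 12 medians of single passaged arrays ran from -0.21 to 0.17. A small change in all cells and a larger one in some of them cannot be told apart here, and whether DNA copies changed was not tested.

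**Figure D5:**
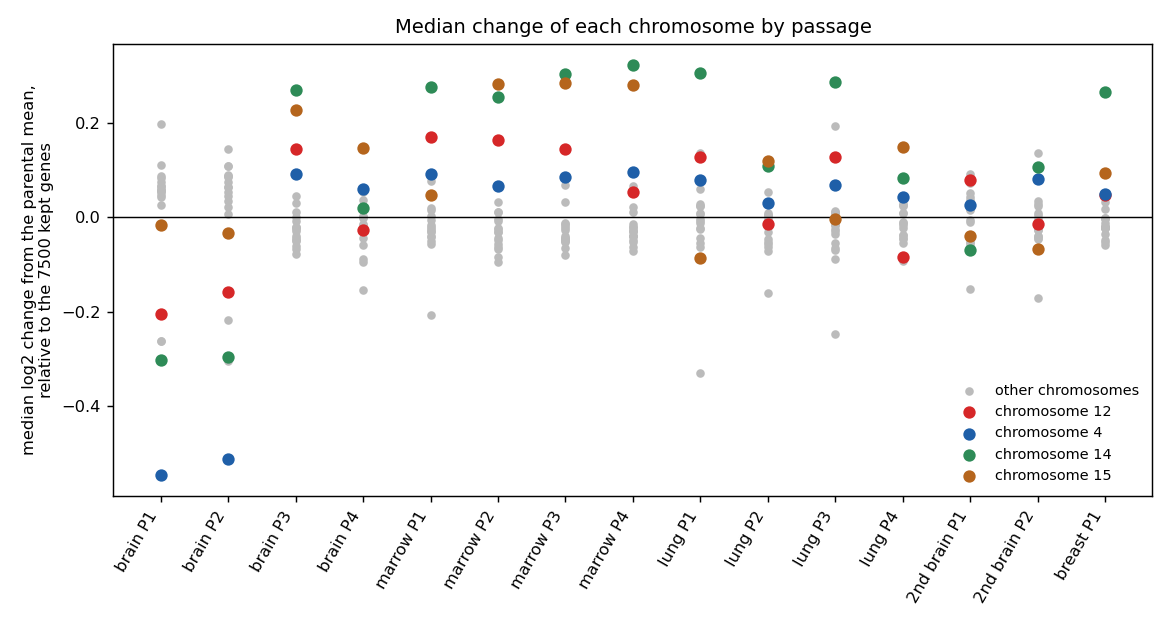
Median log2 change from the parental mean of the kept genes of each of 20 chromosomes (points), relative to all kept genes, by passage along the horizontal axis. Chromosome 12 moves from below 0 at brain P1 and P2 to above 0 at P3, and chromosomes 4, 14 and 15 reach farther than it on several arrays.

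By role, the groups of members were small and none was tested as a group. Early brain and bone marrow chose the members, so the counts by role there are a description only. Of the other kept genes of the chromosome, 71.1% were above 0 on bone marrow and 25.8% in early brain. Of the 11 kept members of chromatin and transcription, 8 were above 0 on bone marrow and 4 in early brain (E2f6 at -0.53 was the lowest there and Hif1a at 0.65 the highest), and 5 were above 0 in late brain. Yy1, a zinc finger factor of very many promoters, was called in no comparison: it had 4.18 and 4.38 at brain P1, 4.82 and 4.53 at P2, 4.68 and 4.45 at P3 and 4.31 and 4.29 at P4, against 4.49 and 4.86 in parental cells. Of 11 members of membrane traffic and the cytoskeleton, 9 were above 0 on bone marrow and 3 in early brain, and 9 on the P1 array of the second brain experiment. Arf6, a small GTPase of the cell surface, had 5.33 and 5.34 at brain P1, 5.79 and 5.43 at P2, 5.30 and 5.33 at P3 and 5.34 and 4.82 at P4, and its parental arrays (5.31 and 4.76) differed by as much. Of 10 members of RNA processing and translation, 9 were above 0 on bone marrow, 7 in late brain and 1 on lung. Eif5 had 5.50, 5.87, 5.71 and 5.78 on bone marrow P1 to P4 against 5.25 and 5.35 in parental cells, and 5.90 on the P1 array of the second brain experiment (adjusted p = 0.16). Of 9 signalling members, 8 were above 0 on bone marrow and all 9 in late brain, where their median was 0.08 and none was called. Among them Nfkbia had 3.13 and 3.01 at brain P2 and 4.09 and 3.54 at P4, against 3.49 and 3.74 in parental cells. The 4 kept members of metabolism had the highest median on bone marrow (0.34), though they ran from -0.08 to 0.58. The 3 of protein folding and turnover followed with 0.27, each of the 3 being above 0 on bone marrow, in late brain and on lung. Smc6 was the only kept member of DNA maintenance.

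Genes of the chromosome outside the list reached larger changes than any member. Plek2, an actin-linked pleckstrin protein, had 1.19 and 1.10 at brain P4 against 2.85 and 3.22 at P3 (-1.89 ± 0.20 SE, adjusted p = 0.0031), beside -1.45 for Odc1. It was followed by 1110002L01Rik (-1.82) and Ttc7b (-1.21). In turn Acot2, a mitochondrial acyl-CoA thioesterase, was 3.66 ± 0.33 (SE) higher on the P1 array of the second brain experiment (adjusted p = 0.0006, limma), followed by Fam110c (1.74) and Wars (1.67). Itgb8, an integrin subunit, was lower in late brain than in parental cells (-1.59, adjusted p = 0.0088) and than in lung (-1.52, adjusted p = 0.0046), Clmn was lower in late brain than in lung (-1.14, adjusted p = 0.0067), and Papln was lower on the breast tissue array than in parental cells (-1.93, adjusted p = 0.031). Of the 49 members, 6 were called at P4 against P3, 2 on that P1 array and 0 in the other 3 comparisons.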

How the data were processed

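The authors deposited log2 values per probe set, made with RMA (background correction, quantile normalization and median polish) in the Affymetrix Expression Console. The array build is not given in the sources used here. Of 34760 probe sets, 21640 carried 1 gene symbol, 1321 several and 11799 none, by the platform annotation. The probe set with the highest mean was used for the 954 genes with several, each array's median over 19937 genes was subtracted, and the 7500 genes with the highest mean were kept (lowest 6.67). Gene order came from RefSeq (GRCm38.p6). A limma model with a mean per group was fitted to all 21 arrays (5 residual and 6.69 prior degrees of freedom). A gene was called at a Benjamini-Hochberg adjusted p under 0.05 over these genes. Lone arrays were assumed to vary like pairs. The fit was checked on simulated data. The members and lists were chosen with earlier results of these data known. Genes were named by rule: members called outside the choice, the 3 farthest above, the 3 farthest below and the 3 nearest the set where it was chosen, 8 of general interest (Akt1, Hif1a, Dnmt3a, Yy1, Hsp90aa1, Odc1, Eif5 and Nfkbia) examples of each role, and up to 3 called genes outside the list per comparison. Other members named were chosen after their values were seen, as were the comparison of brain P4 with P3, passages taken alone and the fit without 5 arrays of high floor. The brain arrays labelled technical replicates were treated as a set in a further fit, also chosen then (4 residual degrees of freedom), since the differences between paired arrays correlated between passages (r = 0.13 to 0.41 over 7500 genes, for each of 6 pairs of passages). Other alternatives were the values as deposited, cyclic loess, the other chromosomes as base, other filters, the mean over probe sets, trend and robust variances, passages as replicates and leaving out each array. R 4.3.3, limma 3.58.1, Python 3.11.15, numpy 2.4.6, pandas 2.3.3 and matplotlib 3.10.9 were used.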

Additional observations from a re-analysis of the deposited data

Results flagged for a closer look

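Among 104 combinations of a value and a set of 4 arrays, 6 had an array far from the other 3, where chance gives about 1 in 20. They were Nampt on the replicate 2 array of brain P2 (3.40, the other early brain arrays 3.48 to 3.50), Arf6 on the replicate 2 array of brain P4 (4.82, against 5.30 to 5.34) and Dnmt3a on the same array (0.90, against 1.56 to 1.60). The others were Taf1b on the replicate 1 array of brain P3 (1.78, against 1.503 to 1.547), and Asap2 (2.17, against 1.47 to 1.56) and Taf1b (1.95, against 1.76 to 1.78) at lung P3.

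The members' median relative change was above 0 on all bone marrow arrays and below 0 on all early brain arrays, with means 0.29 apart, a contrast by which the members were chosen. It was above 0 on the P1 array of the second brain experiment and below 0 on both P1 arrays of the brain series, 0.34 apart. It was below 0 on both brain P4 arrays and above 0 on both P3 arrays, with a difference of -0.20. The difference of the list was not tested in any of these 3 cases.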

How the results depend on the processing

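Medians below are relative to the median of the genes in the same fit. Without a filter that base is all 19937 genes and not the 7500 kept, so those medians are not on the scale of the others. Without a filter, where all 55 measured members enter, the members' median was -0.20 in early brain, -0.072 in late brain, -0.0078 in the second brain experiment at P2, -0.077 for late brain against lung and -0.31 for P4 against P3, and the mean chromosome 12 median was -0.090 in early brain, 0.00 in late brain, 0.062 on bone marrow and 0.03 in the second brain experiment at P1. With the mean over probe sets the members' median was 0.048 on lung and -0.0071 in the second brain experiment at P2. Without the 5 arrays of high floor it was 0.090 for late brain against lung. Taken alone, passages gave -0.20 at brain P1, -0.083 at P2, 0.16 at P3 and -0.030 at P4, 0.25 at bone marrow P2 and 0.054 at P4, and 0.12, -0.043, 0.10 and -0.13 at lung P1 to P4.

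Leaving out each array in turn gave 0.12 to 0.20 on bone marrow, -0.033 to 0.081 on lung, -0.0041 to 0.034 in the second brain experiment at P2, -0.0048 to 0.081 on breast, 0.015 to 0.10 for late brain against lung and -0.25 to -0.17 for P4 against P3. The lowest value on bone marrow, breast and the second brain experiment at P2 was that without the replicate 1 parental array, lung was at 0.07 without P2 and 0.08 without P4, and late brain against lung was 0.08 without lung P1 and 0.10 without lung P3.

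Calls of members in early brain were 1 with the values as deposited, without a filter, without the 5 arrays and without each array in turn (1 to 1). With passages as replicates 0 were called. At P1 alone 1 was called, where limma called 478 of 7500 kept genes. At P2 alone 4 were called (8.16%), 2 higher and 2 lower, where limma called 1154 of 7500 kept genes. At P3 alone 1 was called. In the second brain experiment at P1 there was 1 with the values as deposited, 0 without a filter, with passages as replicates and without the 5 arrays, and 1 to 2 with a parental array left out, where the 1 without replicate 1 was Ifrd1 and not Dld or Sos2. For P4 against P3 there were 1 with the values as deposited, 2 after cyclic loess and with the other chromosomes as base, 0 without a filter and without the 5 arrays, and 1 to 2 with each array left out. Other settings gave more calls for P4 against P3: 8 with a filter at 5000 genes and 6 with trend and robust variances. There were 4 with the mean over probe sets, and 4 with the 7500 genes of highest group mean. With the replicate block for the brain arrays labelled technical replicates, 11 members were called for P4 against P3, 3 in early brain (Smc6 added) and 0 in late brain and for late brain against lung, and the medians did not move. Where a count of calls stands in this section without the number of all kept genes called, it is not read as a result about the members. Single arrays outside the brain series and 2 parental arrays limit the precision of every value.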
